A study of Bos taurus with 6 samples.

Results

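The genes described here are 39 components of transforming growth factor beta (TGF-beta), bone morphogenetic protein (BMP) and myostatin signalling. They were listed by name as ligands, antagonists, latent binding proteins, receptors, SMAD proteins, regulators of SMADs and the target gene TGFBI. All 39 were found among the 23015 rows of the counts, and all 39 were among the 15039 rows that passed the filter on low counts, so none was lost to low expression. The question was whether the difference in TGFBI between the groups came together with a wider difference in the pathway.

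The counts came from longissimus thoracis (LT) muscle of 6 Korean native cattle (Hanwoo) steers raised on commercial feed, with 1 library of 3′ mRNA sequencing per steer. Steers 3-8, 10-8 and 10-9, aged 32.5, 33.8 and 34.5 months, had a high number of fine marbling particles (NFMP), which are small flecks of intramuscular fat counted on an image of the cut muscle. Steers 3-1, 3-3 and 10-16, aged 37.8, 33.7 and 35.4 months, had a low NFMP. The groups were set by the image measurement, and no steer was treated. The paper reports that these high-NFMP steers also had a higher marbling score and a larger rib eye area. Neither trait can be told apart from NFMP here. Each library is a piece of whole muscle that mixes fibres, fat, vessels and connective tissue. In such bulk samples fewer cells of a type and less RNA per cell cannot be told apart.

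TGF-beta is secreted in a latent form that is tethered to the matrix by latent TGF-beta binding proteins and must be released before it signals. Released TGF-beta, activins and myostatin bind type II and type I receptor kinases that phosphorylate SMAD2 and SMAD3, whereas BMPs act through SMAD1, SMAD5 and SMAD9, and both branches share SMAD4. SMAD6 and SMAD7 are inhibitory SMADs that the pathway itself induces, and SMURF ubiquitin ligases and the SKI and SKIL corepressors restrain the signal further. In skeletal muscle myostatin limits fibre growth, and in fat depots TGF-beta holds back adipocyte differentiation and favours matrix production.

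The libraries held 16283873 to 17192750 counted reads, of which the 39 genes took 0.0788% to 0.0951%. The defining fibre markers were present in every steer, at 1519730 or more normalized counts (reads rescaled to a common depth with TMM factors) summed over 6 genes, and none of the 6 had an unadjusted p below 0.05. The groups were compared with edgeR's quasi-likelihood test over all 15039 rows, and log2 fold changes are high NFMP over low NFMP. Genes past the threshold of the study had an unadjusted p below 0.05 and a fold change above 2. A Benjamini-Hochberg (BH) adjusted p over all rows is given as a stricter measure. The p-values set each group difference against a spread between these 6 animals that is moderated across rows, and they treat the animals as independent. Nothing in the labels tells whether steers were related or shared a pen. An exact permutation test of 3 against 3 cannot fall below 0.1.

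TGFBI and the activin subunit gene INHBB were past the threshold, both higher in the high-NFMP steers, and no member was past it in the other direction. These are 2 of 39 members (5.13%), while 3.9% of all tested rows were past the threshold, 2.53% being higher and 1.36% lower. An unadjusted p below 0.05 was reached by 7 members (17.9%, against 11.5% of all tested rows). Of these 6 were higher (TGFBI, TGFB1, TGFB2, INHBB, LTBP4 and SMAD6), which is 15.4% of the members against 5.73% of all rows. The BMP receptor gene BMPR1A was lower, which is 2.56% against 5.74%. TGFBI alone had an adjusted p below 0.05, as had 0.685% of all tested rows. The groups did not overlap in 8 members (20.5%), against 17.1% of all tested rows. In 6 of the 8 each high-NFMP steer was above each low-NFMP steer (15.4% of the members, 7.97% of all rows) and in 2 below (5.13% and 9.16%). With all steers, the share of higher members was thus above the background and that of lower members below it. The lower share depended on steer 3-8. Without that steer BMPR2, SMAD5, TGFBR3 and ACVR2A joined BMPR1A as lower at an unadjusted p below 0.05 by edgeR. No test set the list against other genes, its members were chosen with results of these libraries known, and the study had itself picked TGFBI from them, so these shares are a description. Without TGFBI, 1 of 38 members was past the threshold and 6 of 38 had an unadjusted p below 0.05.

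The median log2 fold change of the 39 members was 0.06, beside 0.02 for all tested rows, with 24 members above 0 and 15 below. By role the medians were 0.27 for 9 ligands, 0.25 for 4 antagonists, 0.10 for 4 latent binding proteins, -0.17 for 9 receptors, 0.03 for 8 SMADs and -0.12 for the 4 SMURF and SKI genes. In 24 members the 95% interval of the difference stayed inside a 2-fold change either way, and in 15 it reached past it. The widest intervals belonged to the rarely counted MSTN, GREM1, SMAD9 and INHBB.

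**Figure D1:**
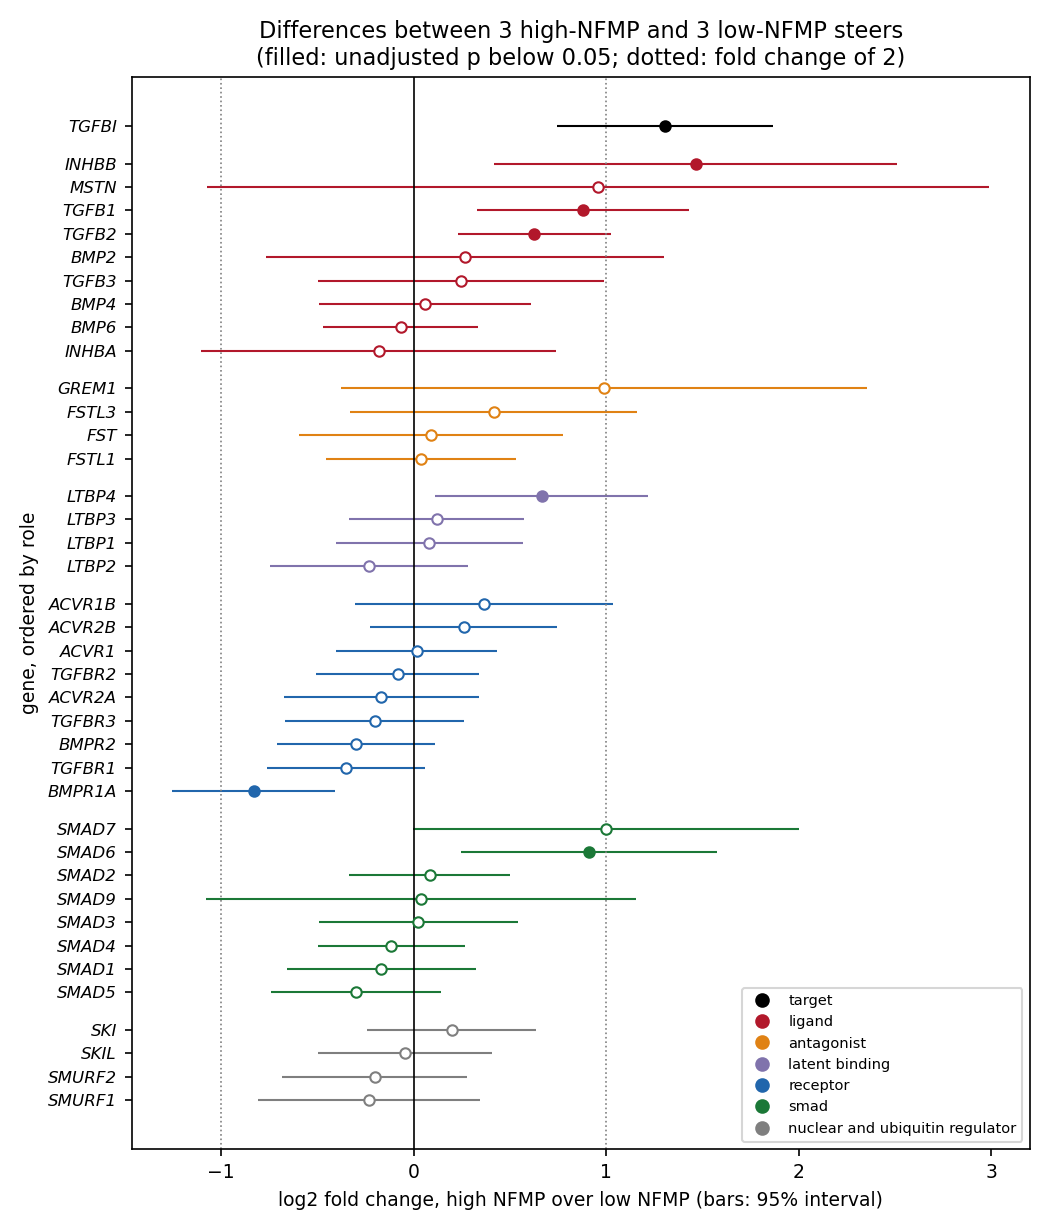
Log2 fold change of each of the 39 genes (x axis, high NFMP over low NFMP, 3 steers each) with its 95% interval, genes grouped by role on the y axis. Filled points have an unadjusted p below 0.05 by edgeR, and dotted lines mark a fold change of 2. Filled points right of 0 are TGFBI, INHBB, TGFB1, TGFB2, LTBP4 and SMAD6, the filled point left of 0 is BMPR1A, and most other intervals span 0.

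TGFBI encodes a secreted matrix protein that binds collagens and integrins and was named for its induction by TGF-beta. It had 129.7, 147 and 131 normalized counts in the high-NFMP steers and 53.6, 53.7 and 57.5 in the low-NFMP steers. The steers of each group lay close together and the groups were far apart, with means of 136 ± 9.36 (SD, n = 3) and 54.9 ± 2.26 (SD, n = 3). The log2 fold change was 1.31 ± 0.26 (SE, edgeR adjusted p = 0.0389), with a 95% interval of 0.74 to 1.87. By p it ranked 70 of the 15039 rows. The study also measured TGFBI by quantitative PCR in a larger set of steers that included these. There the difference had the same direction but was smaller and was not statistically significant. The adjusted p crossed 0.05 with library totals alone (0.0648), with quantile normalization and limma (0.108), with the leading number of the labels as a term (0.07), with age as a term (0.269) and whichever steer was left out, while the log2 fold change stayed between 1.24 and 1.37. No gene overlaps TGFBI in the RefSeq table.

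**Figure D2:**
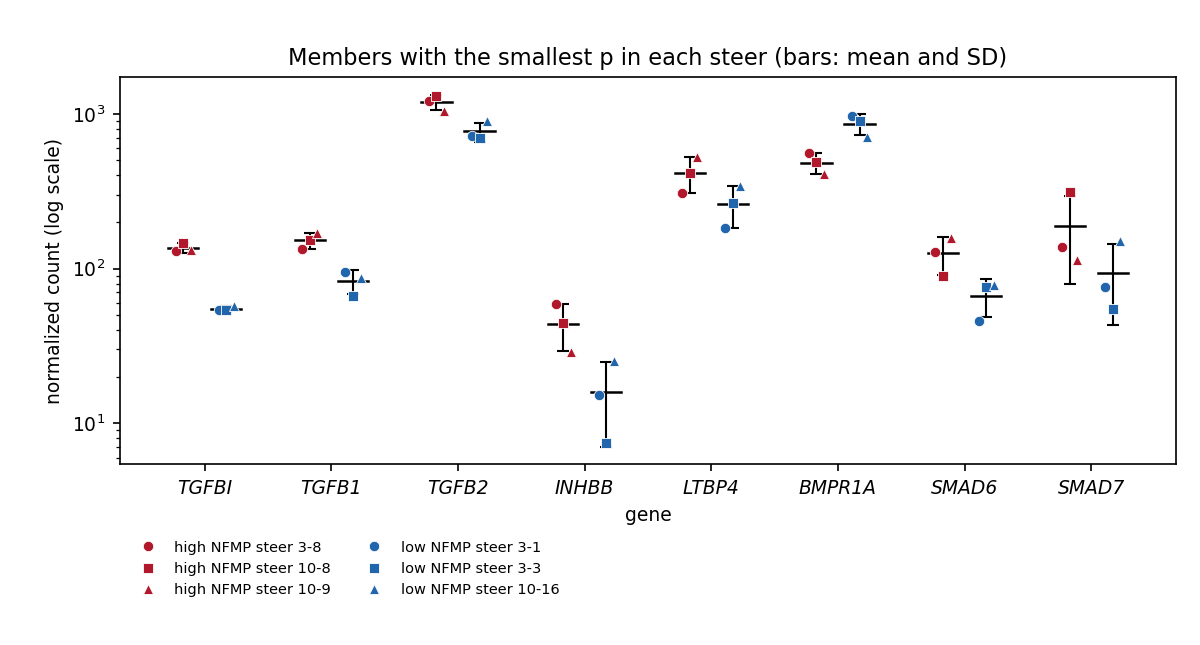
Normalized counts (y axis, log scale) in each steer for the 7 members with an unadjusted p below 0.05 and for SMAD7 (x axis), with the mean and SD of each group of 3. The groups are separate for TGFBI, TGFB1, TGFB2, INHBB, BMPR1A and SMAD6 and overlap for LTBP4 and SMAD7.

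The TGF-beta ligand genes differed in how they compared. TGFB2 had 1211, 1309 and 1044 normalized counts in the high-NFMP steers and 723, 692 and 892 in the low-NFMP steers. Each high-NFMP steer was above each low-NFMP steer, and the log2 fold change was 0.63 ± 0.19 (SE, edgeR adjusted p = 0.184), with a 95% interval of 0.23 to 1.02. TGFB2 had the most counts of the 9 ligands in every steer. In a 3′ library the number of reads does not grow with transcript length, but how far reads from each 3′ end were mapped is unknown, so levels of different genes are not ranked further. TGFB1, the ligand best known from fibrosis, had 134, 152 and 170.5 normalized counts in the high-NFMP steers and 94.7, 66.6 and 86.8 in the low-NFMP steers. Its groups did not overlap either, with a log2 fold change of 0.88 ± 0.26 (SE, edgeR adjusted p = 0.18). TGFB3 had 52.7, 67.8 and 43.1 normalized counts in the high-NFMP steers and 36.4, 48.1 and 53.5 in the low-NFMP steers. These groups overlapped, and the log2 fold change was 0.24 ± 0.35 (SE, edgeR adjusted p = 0.823), with an interval of -0.50 to 0.99. TGFB1 and TGFB2 kept an unadjusted p below 0.05 in each of the 15 fits run.

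The counts of TGFB1 cannot be separated from those of a neighbour. In the RefSeq table of ARS-UCD2.0, TGFB1 overlaps CCDC97, and the high-NFMP steers gave 132, 137 and 170 reads for TGFB1 and 124, 136 and 155 for CCDC97. The low-NFMP steers gave 99, 72 and 86 reads for TGFB1 and 101, 77 and 73 for CCDC97. The ratio of CCDC97 to TGFB1 stayed between 0.849 and 1.07 in the 6 steers, and CCDC97 had a log2 fold change of 0.84 ± 0.26 (SE, edgeR adjusted p = 0.21). A second overlapping gene, HNRNPUL1, was counted 12.1 to 20.4 times as often as TGFB1. How many reads were counted on both genes was not measured, and whether the counting used the strand is not given, so the TGFB1 values may belong in part to CCDC97. In all 7 members (TGFB1, TGFB3, LTBP3, SMAD2, SMAD4, SMAD6 and SMURF2) overlap another counted gene in that table, and their counts carry the same limit.

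**Figure D3:**
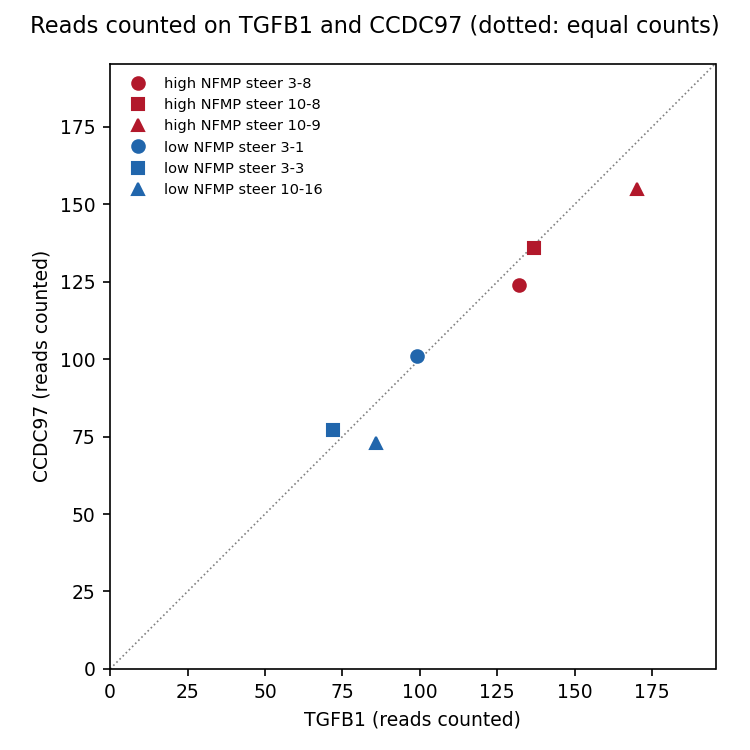
Reads counted in each steer on TGFB1 (x axis) against CCDC97 (y axis), without normalization. The dotted line marks equal counts, and all 6 steers lie close to it.

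INHBB encodes the activin beta B subunit, which pairs into activin B or, with the alpha subunit, into inhibin B. It had 58.8, 44.5 and 29.1 normalized counts in the high-NFMP steers and 15.3, 7.40 and 25.2 in the low-NFMP steers. The lowest high-NFMP steer, 10-9, was just above the highest low-NFMP steer, 10-16. The log2 fold change was 1.46 ± 0.49 (SE, edgeR adjusted p = 0.251), with a wide 95% interval of 0.42 to 2.51. Its unadjusted p was 0.0547 by edgeR without steer 3-8 and 0.0628 with age as a term, and the filter of at least 10 counts in every library removed it. INHBA, the beta A subunit gene, had 25.3, 48.9 and 46.1 normalized counts in the high-NFMP steers and 60.3, 53.7 and 22.2 in the low-NFMP steers. Here the groups overlapped fully, and the log2 fold change was -0.18 ± 0.43 (SE, edgeR adjusted p = 0.898).

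MSTN, the myostatin gene, was hardly counted, with 10, 19 and 26 reads in the high-NFMP steers and 0, 27 and 4 in the low-NFMP steers. On the normalized scale the values were 10.1, 21.1 and 26.1 against 0, 25.0 and 4.04. Steer 3-3 of the low-NFMP group stood near the highest steer of the other group, and the 95% interval of the log2 fold change, -1.07 to 2.99, held both a 2-fold fall and a larger rise. Leaving out that steer moved the log2 fold change from 0.96 to 3.19, which was past the threshold (unadjusted p = 0.00655 and adjusted p = 0.325 by edgeR). Without steer 3-1, the one with no read, it was 0.38, so the value turns on which low-NFMP steer is included.

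The BMP ligand genes among the 39, BMP2, BMP4 and BMP6, had unadjusted p-values above 0.05. BMP6, which in other tissues controls hepcidin and bone formation, had 404, 344 and 382 normalized counts in the high-NFMP steers and 416, 360 and 409.9 in the low-NFMP steers. Its groups overlapped within a narrow range, and the 95% interval of -0.47 to 0.33 is among the tightest of the ligands. BMP4, a factor that commits stem cells to the fat lineage in culture, had 219.9, 286 and 168 normalized counts in the high-NFMP steers and 172, 196 and 279 in the low-NFMP steers, again overlapping. Its log2 fold change was 0.06 with an interval of -0.49 to 0.61. BMP2 was counted seldom, at 13.9 to 49.1 normalized counts, with an interval of -0.76 to 1.30. Summed over the 9 ligand genes, the high-NFMP steers held 1959 to 2319 and the low-NFMP steers 1463 to 1817 normalized counts, a sum in which TGFB2 has the largest part.

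Among the antagonists, follistatin (FST), which binds activins and myostatin, had 94.2, 70.0 and 59.2 normalized counts in the high-NFMP steers and 50.7, 75.9 and 83.8 in the low-NFMP steers. The groups overlapped and the log2 fold change was 0.09 ± 0.32 (SE, edgeR adjusted p = 0.939), with a 95% interval of -0.60 to 0.77. FSTL3, a related activin binder, was a little higher in each high-NFMP steer (50.7, 45.6 and 51.1 against 43.1, 37.0 and 30.3), a difference of 0.42 on the log2 scale with an interval of -0.33 to 1.16. FSTL1, a secreted glycoprotein of the same family, had 392 to 725 normalized counts over the 6 steers and a log2 fold change of 0.04. GREM1, a BMP antagonist of fibroblast-like progenitors, was near the lower end of counting at 3.83 to 18.2, with an interval of -0.38 to 2.36. The log2 fold change of GREM1 was 0.99, ran from 0.31 with age as a term to 1.66 without steer 3-3, and had an unadjusted p of 0.0477 with quantile normalization and limma. By edgeR with all steers none of the 4 antagonists had an unadjusted p below 0.05.

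LTBP4, which anchors latent TGF-beta to elastic fibres and modifies muscular dystrophy in mice, had 306, 415 and 527 normalized counts in the high-NFMP steers and 182, 266 and 339 in the low-NFMP steers. Steer 10-16 of the low-NFMP group lay above steer 3-8 of the high-NFMP group, and the log2 fold change was 0.67 ± 0.26 (SE, edgeR adjusted p = 0.339). Its unadjusted p by edgeR was 0.0218 with all steers and between 0.0524 and 0.110 without steer 10-9, 3-1 or 3-3. It was 0.0583 with the leading label number as a term, where the log2 fold change was 0.46, and 0.088 with age as a term by edgeR, and 0.0628 with quantile normalization and limma. LTBP1 (433 to 747 normalized counts), LTBP2 (126 to 211) and LTBP3 (761 to 1347) overlapped between the groups. Their log2 fold changes were 0.08, -0.23 and 0.12.

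Of the 9 receptor genes, 6 had a log2 fold change below 0, as had 48.1% of all tested rows, and BMPR1A alone had an unadjusted p below 0.05. BMPR1A, a type I receptor of BMP2 and BMP4 that mesenchymal progenitors use when they enter the fat lineage, had 555, 489 and 408 normalized counts in the high-NFMP steers and 974, 897 and 713 in the low-NFMP steers. Each high-NFMP steer was below each low-NFMP steer, and the log2 fold change was -0.83 ± 0.20 (SE, edgeR adjusted p = 0.0806), with a 95% interval of -1.25 to -0.41. It was the only member besides TGFBI to reach an adjusted p below 0.05 under any setting, 0.0144 by DESeq2 being the lowest, and its unadjusted p by edgeR was at most 0.00564 whichever steer was left out.

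TGFBR1, the type I receptor of TGF-beta, had 448, 496 and 495 normalized counts in the high-NFMP steers and 522, 736 and 576 in the low-NFMP steers. The groups did not overlap, but the high-NFMP steers were only just lower, with a log2 fold change of -0.35 ± 0.19 (SE, edgeR adjusted p = 0.518) and an interval of -0.76 to 0.06. TGFBR2, its type II partner, had 433, 446 and 361 normalized counts in the high-NFMP steers and 374, 516 and 423 in the low-NFMP steers. These values overlapped, and the interval of -0.51 to 0.34 keeps the change well within 2-fold. The activin and myostatin receptors ACVR2A (469, 267 and 257 against 366, 381 and 368) and ACVR2B (222, 240 and 217 against 228, 192 and 147) overlapped as well. Steer 3-8 had the highest ACVR2A value and the other 2 high-NFMP steers the lowest. The coreceptor gene TGFBR3, BMPR2, ACVR1 and ACVR1B had log2 fold changes of -0.20, -0.30, 0.01 and 0.36. Without steer 3-8, the unadjusted p of TGFBR3 (0.0225), ACVR2A (0.0213) and BMPR2 (0.0167) by edgeR fell below 0.05, with log2 fold changes of -0.49, -0.51 and -0.49, and their adjusted p stayed at 0.239 or higher. Without steer 10-8 the log2 fold changes were -0.094, -0.013 and -0.18, and without steer 10-9 they were -0.036, -0.0042 and -0.22, so the 3 differences shrank when either of the other high-NFMP steers was left out.

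Among the SMADs, the signal carriers did not pass the test while the inhibitory members had the largest log2 fold changes. SMAD6, the inhibitory SMAD of the BMP branch, had 129, 90.0 and 158 normalized counts in the high-NFMP steers and 45.9, 75.9 and 78.7 in the low-NFMP steers. The groups did not overlap, though steer 10-8 came close to the low-NFMP range, and the log2 fold change was 0.91 ± 0.31 (SE, edgeR adjusted p = 0.261). The unadjusted p was 0.0105 by edgeR, and 0.0511 without steer 10-9, 0.0543 without steer 3-1 and 0.0909 with age as a term. SMAD6 overlaps LOC112441475, which had 12.2, 14.4 and 28.1 normalized counts against 10.5, 10.2 and 4.04. SMAD7, which blocks both branches, had 137, 311 and 113 normalized counts in the high-NFMP steers and 75.6, 54.6 and 150.4 in the low-NFMP steers. Steer 10-8 was far above the others and steer 10-16 of the low-NFMP group above both remaining high-NFMP steers. Its log2 fold change was 1.00 ± 0.45 (SE, edgeR adjusted p = 0.437), or as a fold 0.997 to 4.01 within its 95% interval.

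SMAD7 passed or missed the p limit with the processing. Its unadjusted p was 0.0507 by edgeR, 0.0151 by DESeq2, 0.0371 with library totals alone and 0.0467 with at least 10 counts in every library. Without steer 10-16 the log2 fold change was 1.55 (unadjusted p = 0.0031 by edgeR), and without steer 10-8 it was 0.45 (unadjusted p = 0.269 by edgeR). SMAD2 and SMAD3, the carriers of the TGF-beta branch, had 310 to 409 and 190.4 to 302 normalized counts, with 95% intervals of -0.34 to 0.50 and -0.49 to 0.54. SMAD4 was the tightest, from -0.50 to 0.27. SMAD1 and SMAD5 of the BMP branch had log2 fold changes of -0.17 and -0.30, and SMAD9, at 13.0 to 64.6 normalized counts, a value of 0.04 with an interval of -1.08 to 1.16. Without steer 3-8 that of SMAD5 was -0.47, with an unadjusted p of 0.0395 by edgeR, and without steer 10-8 it was -0.11.

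The ubiquitin ligase genes SMURF1 and SMURF2 and the corepressor genes SKI and SKIL all overlapped between the groups. SMURF1 was level in 5 steers, at 154 to 179 normalized counts, and stood at 299 in steer 10-16 of the low-NFMP group. Log2 fold changes for SMURF1, SMURF2, SKI and SKIL were -0.23, -0.20, 0.20 and -0.05, and all 4 intervals stayed inside a 2-fold change.

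Beyond the 39 genes, a list of further pathway genes was read from the same fit. Of 124 genes listed, 114 were in the counts and 96 were tested. Past the threshold were 2 of 96, both higher, beside 3.9% of all tested rows, and 14 had an unadjusted p below 0.05, with 8 higher and 6 lower, beside 11.5%. None had an adjusted p below 0.05, the lowest being 0.0722 for ID2. The 2 genes past the threshold were LRRC32 and BMP7. LRRC32, which presents latent TGF-beta on cell surfaces, had 19.3, 23.3 and 45.1 normalized counts in the high-NFMP steers and 11.5, 9.25 and 6.06 in the low-NFMP steers, a log2 fold change of 1.70 ± 0.53 (SE, edgeR adjusted p = 0.214). BMP7 had 26.3, 35.6 and 7.02 normalized counts in the high-NFMP steers and 3.83, 13.0 and 9.09 in the low-NFMP steers, and steer 10-9 lay within the low-NFMP range. THBS1, a matrix protein that can release active TGF-beta, had 1117, 1051 and 846 normalized counts in the high-NFMP steers and 618, 479 and 708 in the low-NFMP steers, with no overlap and a log2 fold change of 0.74 ± 0.20 (SE, edgeR adjusted p = 0.138).

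Target genes differed in both directions. ID2, a BMP target that blocks differentiation factors, had 836, 675 and 895 normalized counts in the high-NFMP steers and 391, 325 and 540.1 in the low-NFMP steers. The groups were separate and the log2 fold change was 0.94 ± 0.22 (SE, edgeR adjusted p = 0.0722). ID1, the standard BMP target, had 597, 490.1 and 788 against 322, 205 and 660.3 and overlapped. CYR61 (CCN1) was lower in each high-NFMP steer, at 541, 1039 and 333 against 1080.3, 1085 and 1332, with a log2 fold change of -0.87 ± 0.35 (SE, edgeR adjusted p = 0.378). CTGF (CCN2), which like CYR61 also answers to mechanical load, had a log2 fold change of 0.05 with an interval of -0.41 to 0.52.

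The matrix genes COL1A1, COL3A1 and FN1 (the last counted here in the list of activators) had log2 fold changes of 0.23, 0.16 and 0.45, and their groups overlapped. Of the other matrix genes in the target list, COL1A2 (-0.14), COL6A3 (-0.10), ELN (-0.02) and TIMP3 (-0.25) lay below 0 and COL5A1 (0.43), POSTN (0.43), LOX (0.13) and TIMP1 (0.40) above it, all 8 with overlapping groups and an unadjusted p above 0.05. COL1A1 stood at 4197 normalized counts in steer 10-8 and at 1428 to 2430 in the other 5 steers. Over the 26 target genes tested the median log2 fold change was 0.15 and none was past the threshold. Those with an unadjusted p below 0.05 included ID2 and VIM, both higher, and CYR61, which was lower. Of the 27 intracellular regulators, 4 were lower (USP15, ZFYVE16, MAP3K7 and LEMD3) and NEDD4L was higher at that p. Of all tested rows, 5.74% were lower and 5.73% higher at it. USP15, a deubiquitinase of receptors and SMADs, had 488, 423 and 404 normalized counts in the high-NFMP steers and 744, 809 and 614 in the low-NFMP steers and a log2 fold change of -0.72 ± 0.19 (SE, edgeR adjusted p = 0.122).

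**Figure D4:**
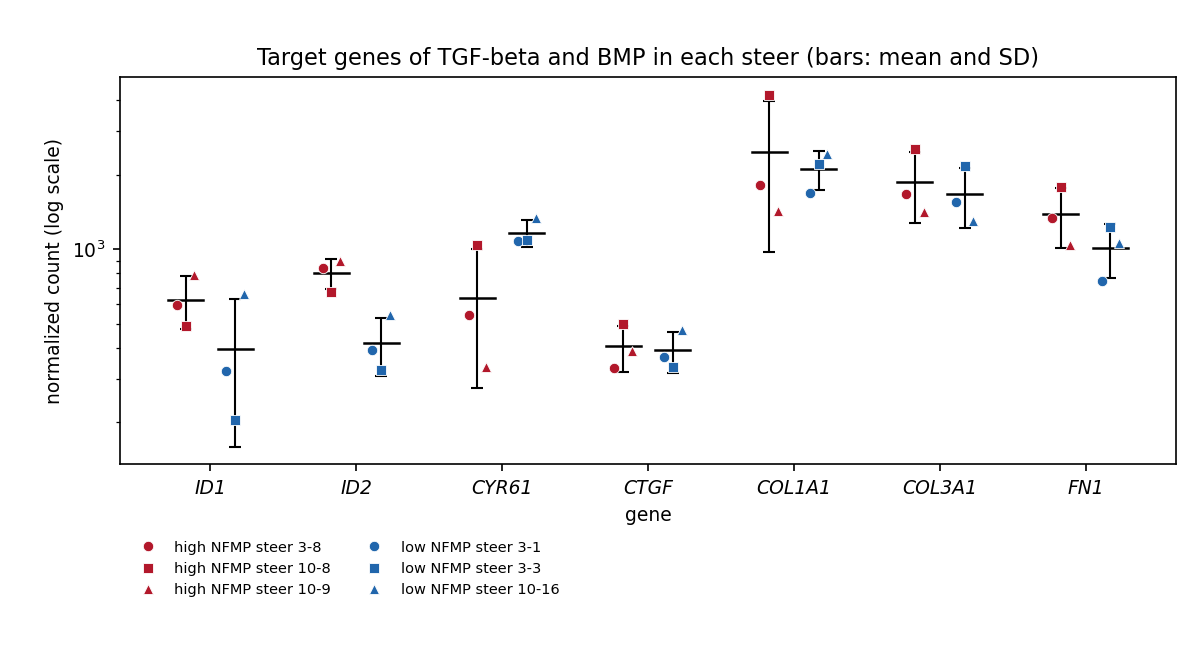
Normalized counts (y axis, log scale) in each steer for 7 target genes of TGF-beta and BMP (x axis), with the mean and SD of each group of 3. ID2 is separated upwards and CYR61 downwards in the high-NFMP steers, while the collagen genes, FN1, CTGF and ID1 overlap.

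Markers of cells that could carry these transcripts were counted in the same libraries. TGFBI is abundant in macrophages. Of 12 macrophage and monocyte markers 3 had an unadjusted p below 0.05, all higher, beside 5.73% of all tested rows. Past the threshold was 1 (AIF1), also higher, beside 2.53% of all rows. The median log2 fold change of the 12 markers was 0.53, with 8 above 0 and 4 below. Their summed level was 889 to 1329 normalized counts in the high-NFMP steers and 625 to 1159 in the low-NFMP steers, and none of the 12 was at 0 in any steer. C1QA had 294, 259 and 233 against 82.3, 224 and 167, CD163 264, 66.7 and 137 against 207, 339 and 147, and CD68 19.3, 7.78 and 11.0 against 15.3, 2.78 and 23.2. The part of macrophages in the TGFBI difference was not tested.

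**Figure D5:**
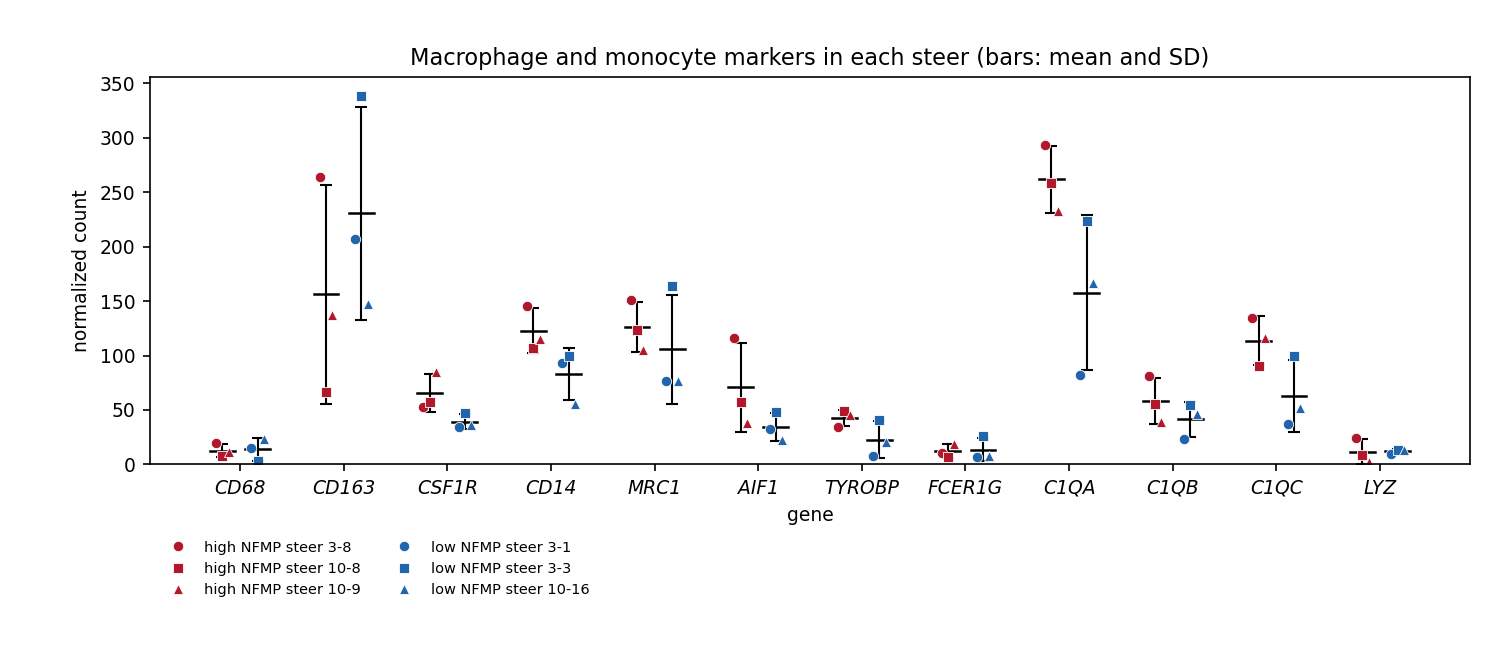
Normalized counts (y axis, linear from 0) in each steer for 12 macrophage and monocyte markers (x axis), with the mean and SD of each group of 3. CSF1R, CD14 and C1QA are higher in each high-NFMP steer, and the other 9 markers overlap between the groups.

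All 7 adipocyte markers had log2 fold changes above 0, as had 51.9% of all tested rows, with a median of 0.61. Of the 7, 3 (ADIPOQ, CIDEC and PLIN4) were higher at an unadjusted p below 0.05, beside 5.73% of all rows. The summed level of the 7 was 5079.8 to 11900 normalized counts in the high-NFMP and 4827 to 6144 in the low-NFMP steers. Steer 3-8 was on top, at 4945 for FABP4. Of 7 fibroblast and progenitor markers, 5 had log2 fold changes above 0, with a median of 0.23 over the 7, and none of the 5 had an unadjusted p below 0.05. PDGFRA was lower at that p (363, 338 and 234 against 384, 403 and 540.1, log2 fold change -0.51 ± 0.22 (SE, edgeR adjusted p = 0.408)), and the summed levels were 12319 to 15639 and 9566 to 12684. Of 6 endothelial markers, 3 were above 0 and 3 below, with a median log2 fold change of 0.0062. CLDN5 was higher at that p, CDH5 was lower in each high-NFMP steer without passing it (log2 fold change -0.16), KDR had a log2 fold change of -0.46, and the sums were 1042 to 1571 and 999 to 1304. None of the 5 pericyte and smooth muscle markers passed it, with a median log2 fold change of 0.14 and sums of 1617 to 2197 and 1346 to 1923. Their part in the ligand, receptor and SMAD6 differences was not tested.

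Age and the steer labels were not balanced between the groups. The labels start with 3 in 1 high-NFMP and 2 low-NFMP steers and with 10 in 2 and 1, and what that number stands for is not given. Within the steers starting with 3 the log2 ratio of the mean normalized counts was 1.27 for TGFBI, 0.73 for TGFB1, 0.77 for TGFB2, 2.37 for INHBB, 1.08 for SMAD6 and -0.75 for BMPR1A. Within those starting with 10 the values were 1.27, 0.89, 0.40, 0.54, 0.66 and -0.67, the same signs from 3 steers each. With age as a term, 4 members kept an unadjusted p below 0.05 by edgeR, namely TGFBI, BMPR1A, TGFB1 and TGFB2.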

How the data were processed

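RNA sequencing counts of LT muscle from 3 high-NFMP and 3 low-NFMP steers were used, with groups taken from the sample labels. The authors made 3′ mRNA libraries with single-end reads and deposited the raw number of reads (counts) for each gene symbol. Their methods name UMD3.1 with Tophat2 and HTSeq in 1 place and Bowtie2 with unique and multiple alignments in another, and the submitters' notes list Bowtie2 and bedtools. Which of them produced the deposited counts, and whether strand was used, is not given in the sources consulted.

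The analysis ran in edgeR 4.0.16 under R 4.3.3. The filter (minimum count 10, minimum total 15) kept 15039 of 23015 rows, TMM factors lay between 0.915 and 1.083, and repeated symbols (176 rows) stayed separate. Groups were compared with the robust quasi-likelihood test. Standard errors came from the log2 fold change and the F statistic, and 95% intervals from the t distribution. The reads carry no molecular identifiers and are not independent molecules, so counting error is the least error a value has, and the biological coefficient of variation was 25.1%.

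The members, the other lists and the tests were chosen with earlier results of these data known. Values in every steer were given for TGFBI, for members with an unadjusted p below 0.05 and for ligands and receptors named in advance. The other pathway genes named were those past the threshold or with a small p, and standard targets. Results for some genes are not reported here. The values of CCDC97, HNRNPUL1 and LOC112441475, of ID2, VIM, CYR61, THBS1, NEDD4L, USP15, ZFYVE16, MAP3K7 and LEMD3, of CD68 and CIDEC and of MYF5 were named after they were seen. All 39 symbols were matched in RefSeq's gene table (assembly ARS-UCD2.0), which served to find overlapping genes only. Alternatives were other filters, RLE factors, library totals, DESeq2 1.42.0, quantile normalization of log2(count + 1) with limma 3.58.1, age or the leading label number as a covariate, and omission of each steer in turn. The procedures were tested on simulated counts.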

Additional observations from a re-analysis of the deposited data

How the results depend on the processing

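No paired analysis was possible because the labels give no replicate number that the groups share. TGFBI, TGFB1, TGFB2 and BMPR1A kept their direction and an unadjusted p below 0.05 in all 15 fits. The cause of the changes below was not tested unless named. The number of members at an adjusted p below 0.05 was 1 and became 2 (TGFBI and BMPR1A) without a filter and by DESeq2, and 0 with library totals alone, quantile normalization with limma, the leading label number or age as a term and in each fit with 1 steer fewer. Members at an unadjusted p below 0.05 fell from 7 to 4 with age as a term and rose to 10 without steer 3-8. The genes added without that steer, BMPR2, SMAD5, TGFBR3 and ACVR2A, were all lower. Higher members past the threshold were 2 (TGFBI and INHBB), and 3 by DESeq2, where SMAD7 joined them. They were TGFBI and SMAD7 with at least 10 counts in every library, and TGFBI and TGFB1 with age as a term. With a steer left out they were 1 to 4 (1 without steer 3-8, 4 without steer 3-3 or 10-16). Pathway genes past it were 2, and 0 with at least 10 counts in every library, 1 with library totals alone, DESeq2 or the leading label number, 6 with age and 1 to 5 without a steer. Of all rows, 586 passed, 969 without a filter (more rows tested) and 364 with at least 10 counts in every library (fewer rows tested). The 586 rows were 381 higher and 205 lower, while without steer 3-8 there were 366 higher and 378 lower. The members' median log2 fold change of 0.06 ran from -0.05 (without steer 3-8) to 0.16 (without steer 10-9). Leaving out the 7 members that overlap another counted gene, a setting chosen after seeing the data, left 2 past the threshold and 5 at an unadjusted p below 0.05.

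A change of sign occurred 52 times in 17 members, none of them with an unadjusted p below 0.05 by edgeR, limma or DESeq2 where it occurred. With age as a term the log2 fold changes were 0.059 for INHBA, -0.092 for BMP4, -0.30 for FST, -0.17 for FSTL1, -0.11 for LTBP1, -0.27 for SMAD3, -0.14 for SMAD9, -0.0084 for SKI and 0.066 for SKIL. With library totals alone they were -0.010 for BMP4, -0.043 for FSTL1, -0.059 for ACVR1, -0.037 for SMAD3 and -0.020 for SMAD9, with the leading label number -0.10 for BMP2 and -0.023 for BMP4, without a filter -0.0061 for ACVR1 and -0.0014 for SMAD3, and with quantile normalization -0.22 for SMAD9. With a steer left out the ranges were INHBA -0.47 to 0.072, BMP2 -0.096 to 0.62, BMP4 -0.12 to 0.31, BMP6 -0.13 to 0.023, FST -0.12 to 0.26, FSTL1 -0.098 to 0.28, LTBP1 -0.20 to 0.25, LTBP3 -0.070 to 0.29, TGFBR2 -0.19 to 0.048, ACVR1 -0.061 to 0.16, SMAD1 -0.37 to 0.038, SMAD2 -0.049 to 0.19, SMAD3 -0.14 to 0.22, SMAD9 -0.24 to 0.50, SMURF1 -0.40 to 0.18 and SKIL -0.21 to 0.12.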

Other observations

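MYF5, a transcription factor of muscle satellite cells and myoblasts, was removed by the filter on low counts and so was not tested. It had 39.5, 28.9 and 10.0 normalized counts in the high-NFMP steers and 6.70, 5.55 and 1.01 in the low-NFMP steers, with no overlap between the groups. The other satellite cell marker listed, PAX7, was not analysed here. SCX, a tendon progenitor factor that TGF-beta induces, had 41.5, 80.0 and 29.1 normalized counts in the high-NFMP steers and 32.5, 27.8 and 24.2 in the low-NFMP steers. Steer 3-1 of the low-NFMP group lay above steer 10-9 of the high-NFMP group, and the log2 fold change was 0.83 ± 0.43 (SE, edgeR adjusted p = 0.487).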
